A study of Mus musculus with 24 samples.

Results

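The mitochondrial ribosome, or mitoribosome, translates the few messenger RNAs encoded in mitochondrial DNA, all of which specify subunits of the oxidative phosphorylation complexes. Its RNAs come from mitochondrial DNA, whereas all its proteins are encoded in the nucleus, made in the cytosol and imported. Some of them descend from proteins of the bacterial ribosome, and others were added in the mitochondrial lineage. Genes for the large subunit have symbols beginning with Mrpl and those for the small subunit symbols beginning with Mrps, with a few exceptions given below. Membership was set by these symbols alone, without a cut on any measured value, though earlier results of these data were known. The array annotation held 78 such symbols. Of these, 77 had a probe set assigned to that gene alone, 48 of them Mrpl and 29 Mrps, among 19938 genes tested, and 1 was on a probe set shared with another symbol and was not analysed.

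The cells were NIH3T3, an immortalised line of mouse embryonic fibroblasts. All groups were kept for 96 h in 1 mM difluoromethylornithine (DFMO), which irreversibly blocks ornithine decarboxylase and so depletes cells of polyamines, and the submitters describe these cells as growth arrested. The unstimulated group was collected at 0 min. The other groups received 10 µM spermidine in the presence of 1 mM aminoguanidine, an inhibitor of amine oxidases, and were collected after 30, 60 or 120 min, after 240 or 360 min, or after 480 or 600 min, with 3 biological replicates per time and 24 MoGene 1.0 ST arrays in all. Whether aminoguanidine was also given to the 0 min dishes is not stated in the labels. None of the 24 arrays came from DFMO-treated cells kept without spermidine for the same times, so an effect of spermidine and one of time or handling cannot be told apart. Each array was made from 200 ng of total RNA, and values are levels relative to the other transcripts of the sample. A lower level and a larger amount of other RNA per cell cannot be told apart.

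Array medians lay between 4.40 and 4.45 on the log2 scale. Precision is limited by having 3 arrays per time. Markers of the labelled cell type were present: all 12 fibroblast markers had a mean above the median gene (4.35), while 6 macrophage markers lay between 3.75 and 4.61 and 6 epithelial markers between 3.63 and 4.60. The mean of the fibroblast markers was 9.87 to 9.93 on the 600 min arrays and 9.66 to 9.78 on the 0 min arrays, and among them Pdgfra (1.37 ± 0.17), Pdgfrb (0.42 ± 0.13) and P4hb (0.17 ± 0.04) had the largest called rises and Col5a1 (-0.34 ± 0.08) a called fall. The part of these shifts in the results was not tested. Replicate 3 of 120 min and replicate 3 of 240 min, called the outlying pair here, did not lie with the other arrays of their times. On the first principal component (63.1% of the variance), replicate 3 of 120 min lay at 2.61, against -12.2 for both others, and replicate 3 of 240 min at -13.2, against 2.07 and 1.49. Both were kept as labelled, and results that rest on them are also given without them.

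The median member lay below its 0 min level at the later times, while a few members lay above theirs. The median member differed from its 0 min mean by -0.01 at 30 min, -0.04 at 60 min, -0.01 at 120 min, -0.03 at 240 min, -0.09 at 360 min, -0.14 at 480 min and -0.20 at 600 min, in log2 units. At 600 min the median over all genes tested was 0.01. By array, the median member lay at -0.14, -0.20 and -0.21 at 600 min, against -0.02, 0.04 and -0.02 at 0 min, so the groups did not overlap. The outlying arrays at 120 and 240 min had 0.08 and 0.05, each above the other arrays of its time. The 0 min arrays serve in every comparison with 0 min, so the 7 comparisons are not independent.

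Genes were called at an adjusted p under 0.05 in limma, with Benjamini-Hochberg adjustment over all genes tested. No member was called at 30, 60 or 120 min, where 0.015%, 0.0251% and 0.471% of all genes were. At an unadjusted p under 0.05, limma gave 1, 2 and 13 of the 77 members at these times, against 5.54%, 5.14% and 12.2% of all genes. With the replicate number as a block it gave 1, 1 and 10 members. At 240 min a single member, Mrpl51, was called, against 2.69% of all genes called lower and 0.366% called higher. Without the outlying pair, 10 members were called lower at 240 min and none higher, against 5.87% of all genes called lower in that fit. The calls came mainly from 360 min on. At 360 min 13 members were lower and 3 higher (10.5% and 8.47% of all genes), and at 480 min 27 were lower and 3 higher (14.5% and 9.73%). At 600 min 34 of 77 members, or 44.2%, were lower and 6, or 7.79%, higher, against 15.7% and 11.2% of all genes. Among the 9969 genes with a mean above the median gene, which included 76 of the 77 members, 30.3% were lower and 19.2% higher. The exception was Mrps10, with a mean of 3.92. All 3 arrays at 600 min lay below all 3 at 0 min for 38 members and above them for 7 (19.9% and 17.5% of all genes). An F-test over the 7 differences called 39 members, or 50.6%, against 30.9% of all genes. The F-test, the counts of arrays without overlap and the calls at 360 and 480 min were set against all genes only. Genes above the median gene were called more often at 600 min, so these excesses may partly reflect the members' level, which was not tested.

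**Figure D1:**
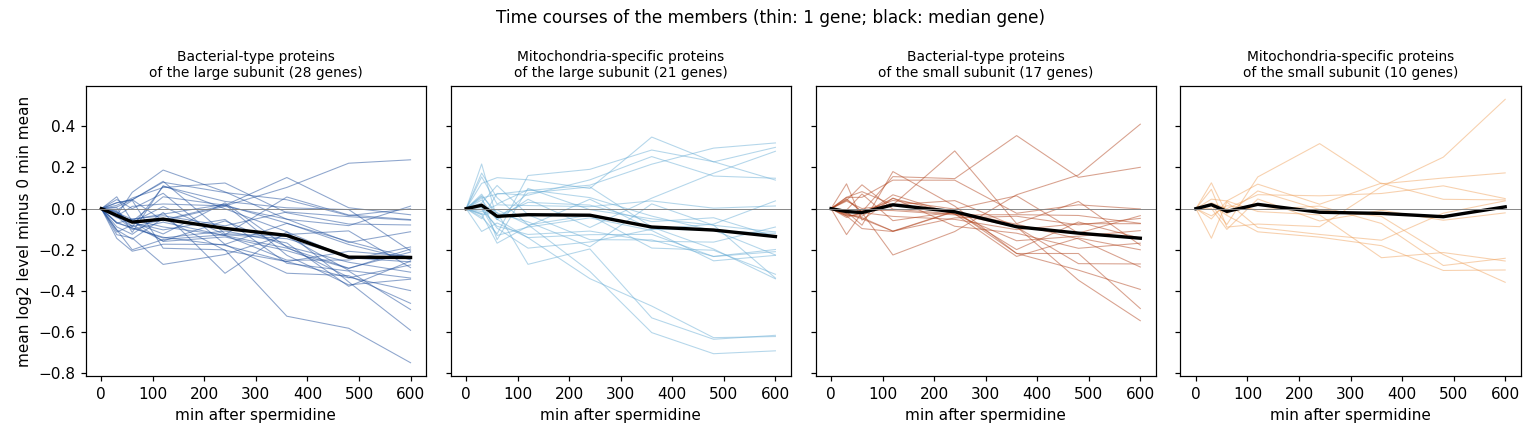
Mean log2 level of each member minus its 0 min mean (y axis) against min after spermidine (x axis), 1 panel per group of members. Thin lines are single genes and the black line is the median gene. The median of the bacterial-type large-subunit proteins ends at -0.24, and single genes of every panel lie above 0 at 600 min.

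Of the 34 members called lower at 600 min, 26 had Mrpl symbols. Of 28 large-subunit proteins of bacterial type, 18 were lower at 600 min, or 64.3%, and 1 was higher, with a median of -0.24. Of 21 mitochondria-specific proteins of the large subunit, 8 were lower and 3 higher, with a median of -0.14. In the small subunit, 4 of 17 bacterial-type proteins were lower and 1 higher (median -0.14), and 4 of 10 mitochondria-specific ones were lower and 1 higher (median 0.01). Over all genes 15.7% were lower and 11.2% higher at 600 min, and over genes above the median gene 30.3% and 19.2%. The 23.5% lower among bacterial-type small-subunit proteins was below that 30.3%, and the 40% among the mitochondria-specific ones above it. Mrps36, whose protein is now placed in the alpha-ketoglutarate dehydrogenase complex and not in the ribosome, was kept apart from these groups. By symbol, the number called lower among 48 Mrpl genes was 13 at 360 min, 22 at 480 min and 26 at 600 min, and among 29 Mrps genes it was 0, 5 and 8 at the same times. Over all genes 10.5%, 14.5% and 15.7% were lower at these times. The share of Mrps genes lower at 600 min, 27.6%, was below the 30.3% of genes above the median gene. At an unadjusted p under 0.05 in limma, 4 Mrps genes were lower at 360 min, and with the replicate block none was called. The difference between the groups was not tested.

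**Figure D2:**
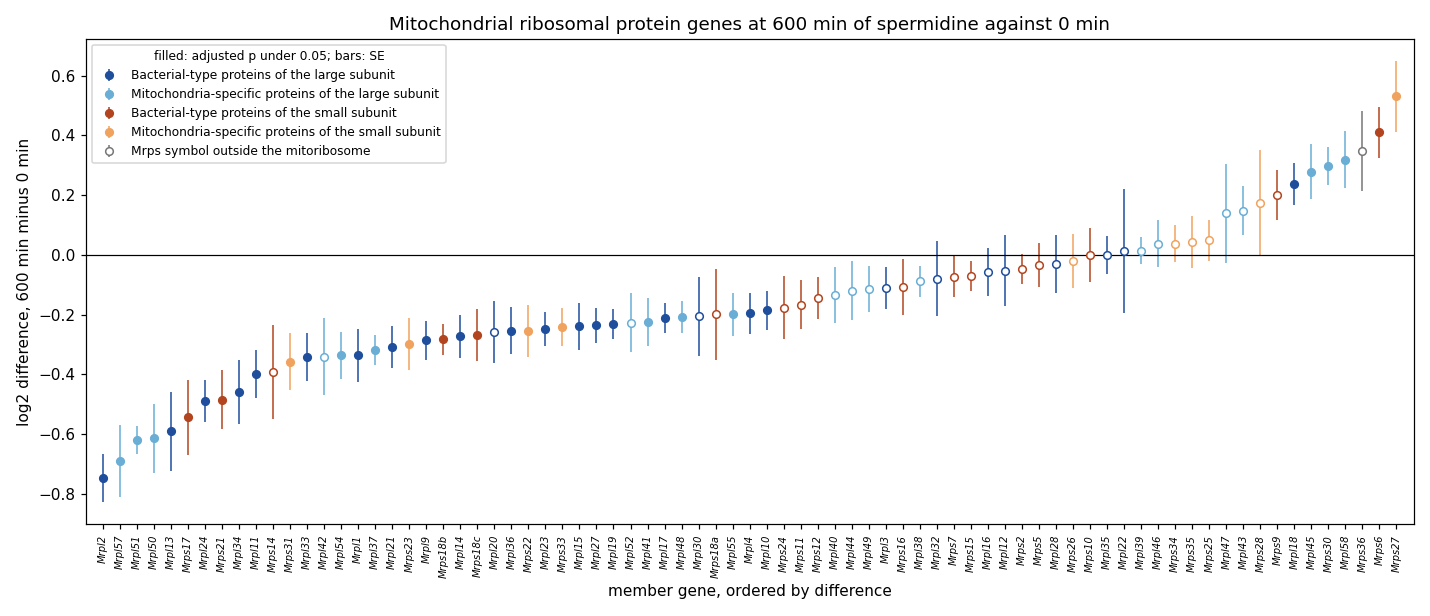
Log2 difference of each of the 77 members, 600 min minus 0 min (y axis), ordered by size (x axis), with the standard error as a bar. Filled points are called and colours mark the group, from Mrpl2 at -0.75 to Mrps27 at 0.53.

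Mrpl2 had the largest called fall. It encodes the relative of bacterial L2, which lies near the peptidyl transferase centre. Its log2 levels were 9.21, 9.18 and 9.23 at 0 min, 9.18, 9.22 and 9.20 at 30 min, 9.21, 9.34 and 9.19 at 60 min, 9.13, 9.12 and 8.80 at 120 min, 8.88, 8.91 and 9.23 at 240 min, 8.72, 8.68 and 8.65 at 360 min, 8.62, 8.59 and 8.67 at 480 min, with 8.49, 8.40 and 8.48 at 600 min. The arrays from 360 min on all lay below those from 0 to 120 min. Replicate 3 was the low array at 120 min and the high one at 240 min, which are the outlying pair. At 600 min the level fell by 40.5%, a log2 difference of -0.75 ± 0.08 (SE, limma adjusted p = 5.86e-07). At 360 min it was -0.52 ± 0.08 (adjusted p = 0.000109). Among other bacterial-type proteins of the large subunit, Mrpl13, the relative of bacterial L13, fell late. It had 7.01, 6.79 and 6.96 at 600 min, against 7.43, 7.73 and 7.38 at 0 min, and the arrays of the groups did not overlap. The difference was -0.59 ± 0.13 (adjusted p = 0.00182), while at 360 min it was -0.11 (adjusted p = 0.68).

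Among the mitochondria-specific large-subunit proteins, Mrpl57, Mrpl51 and Mrpl50 fell by similar amounts. Mrpl57, formerly named Mrp63, had 7.01, 6.71 and 6.95 at 600 min, against 7.67, 7.51 and 7.56 at 0 min. The difference was -0.69 ± 0.12 (adjusted p = 0.000186). Its mean was 6.98 at 360 min and 6.88 at 480 min, close to the 6.89 at 600 min. Mrpl50 had 8.09, 8.21 and 8.23 at 600 min, against 8.77, 8.85 and 8.77 at 0 min. The difference was -0.62 ± 0.12 (adjusted p = 0.00033). In both genes all arrays at 600 min lay below all arrays at 0 min, and at 120 and 240 min replicate 3 again sat apart, low at 120 min and high at 240 min.

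Mrpl51 was the member called earliest. Its log2 levels were 9.82, 9.87 and 9.87 at 0 min, 9.80, 9.93 and 9.87 at 30 min, 9.89, 9.77 and 9.74 at 60 min, 9.72, 9.76 and 9.65 at 120 min, 9.52, 9.50 and 9.52 at 240 min, 9.35, 9.33 and 9.46 at 360 min, 9.28, 9.20 and 9.19 at 480 min, with 9.20, 9.21 and 9.28 at 600 min. All arrays from 120 min on lay below those at 0 min, and at 240 min the 3 replicates lay close together. The difference from 0 min was -0.14 ± 0.05 at 120 min, which was not called (adjusted p = 0.191), and -0.34 ± 0.05 at 240 min (adjusted p = 0.000441). At 600 min it was -0.62 ± 0.05 (adjusted p = 6.41e-09), a fall by 35%. RefSeq also lists a pseudogene of Mrpl51, Gm14017, and the array annotation used here gives no positions, so which copy a probe set reads was not determined. A second probe set of Mrpl51 had 7.69, 7.68 and 7.66 at 600 min, against 8.80, 8.51 and 8.34 at 0 min. Its difference was -0.87 ± 0.16 at 600 min (adjusted p = 0.000424 over all probe sets) and -0.62 ± 0.16 at 240 min, which was not called (adjusted p = 0.0553).

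**Figure D3:**
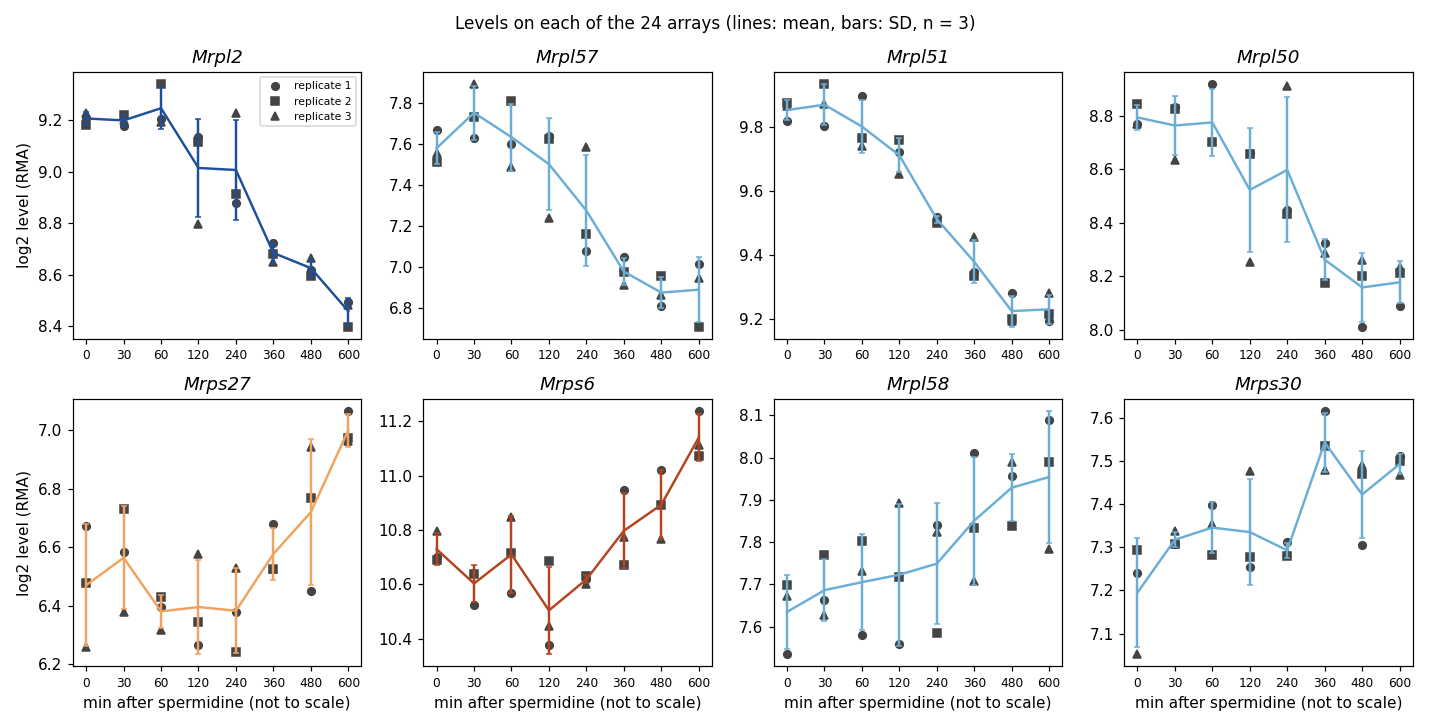
Log2 level (y axis) of 8 members on each of the 24 arrays against min after spermidine (x axis, not to scale). Markers are replicates, lines join means and bars are SD (n = 3). Mrpl2, Mrpl57, Mrpl51 and Mrpl50 lie below all their 0 min arrays at 600 min, and Mrps27 and Mrps6 end above all their 0 min arrays.

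A few large-subunit genes rose. Mrpl58, also known as ICT1, encodes a peptidyl-tRNA hydrolase that became a ribosomal protein. It had 8.09, 7.99 and 7.78 at 600 min, against 7.53, 7.70 and 7.67 at 0 min, and the difference was 0.32 ± 0.10 (adjusted p = 0.0164). Mrps30, which structures place in the large subunit despite its symbol, had 7.51, 7.50 and 7.47 at 600 min, against 7.24, 7.29 and 7.05 at 0 min. It rose by 0.30 ± 0.06 at 600 min (adjusted p = 0.00104) and by 0.35 ± 0.06 at 360 min (adjusted p = 0.000471). Its mean at 360 min was slightly above that at 600 min. Mrpl45, at the exit of the peptide tunnel where the ribosome meets the inner membrane, had 8.59, 8.58 and 8.50 at 600 min, against 8.30, 8.20 and 8.34 at 0 min. The difference was 0.28 ± 0.09 (adjusted p = 0.029). Mrpl18, which in the bacterial ribosome binds the 5S RNA, had 9.03, 9.12 and 8.98 at 600 min, against 8.70, 8.87 and 8.85 at 0 min. The difference was 0.24 ± 0.07 (adjusted p = 0.0141). In all 4 genes the arrays at 600 min lay above those at 0 min. The calls of Mrpl58, Mrpl45 and Mrpl18 were lost when either replicate 1 of 0 min or replicate 2 of 600 min was left out, those of Mrpl58 and Mrpl45 also without replicate 1 of 600 min, and that of Mrpl45 also without replicate 2 of 0 min (adjusted p between 0.0558 and 0.117 over these).

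The small subunit held the largest rises. Mrps27, a pentatricopeptide repeat protein that binds RNA, had log2 levels of 6.67, 6.48 and 6.26 at 0 min, 6.58, 6.73 and 6.38 at 30 min, 6.40, 6.43 and 6.32 at 60 min, 6.26, 6.34 and 6.58 at 120 min, 6.38, 6.24 and 6.53 at 240 min, 6.68, 6.53 and 6.52 at 360 min, 6.45, 6.77 and 6.94 at 480 min, with 7.06, 6.97 and 6.96 at 600 min. The 600 min arrays lay above every array of the other times. At 600 min the difference was 0.53 ± 0.12 (adjusted p = 0.00174), a rise by 44.5%. Mrps6, the relative of bacterial S6, had 10.70, 10.69 and 10.80 at 0 min, 10.52, 10.64 and 10.65 at 30 min, 10.57, 10.72 and 10.85 at 60 min, 10.38, 10.69 and 10.45 at 120 min, 10.62, 10.63 and 10.60 at 240 min, 10.95, 10.67 and 10.77 at 360 min, 11.02, 10.89 and 10.77 at 480 min, with 11.24, 11.07 and 11.11 at 600 min. Its lowest mean was at 120 min and its highest at 600 min, where the arrays again lay above those of all other times. The difference at 600 min was 0.41 ± 0.08 (adjusted p = 0.000825). At 480 min neither gene was called, with 0.25 (adjusted p = 0.153) for Mrps27 and 0.16 (adjusted p = 0.197) for Mrps6.

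The largest fall of the small subunit was that of Mrps17, the relative of bacterial S17. It had 7.48, 7.42 and 7.15 at 600 min, against 7.84, 7.96 and 7.87 at 0 min, with no overlap, and the difference was -0.54 ± 0.13 (adjusted p = 0.00224). The relative of bacterial S18 is encoded by 3 genes, Mrps18a, Mrps18b and Mrps18c, and structures place the product of Mrps18a in the large subunit, although it is counted here by its symbol. Mrps18b had 9.34, 9.42 and 9.50 at 600 min, against 9.72, 9.72 and 9.67 at 0 min (difference -0.28 ± 0.05, adjusted p = 0.000276). Mrps18c had 8.84, 8.75 and 8.88 at 600 min, against 9.10, 9.14 and 9.04 at 0 min (difference -0.27 ± 0.09, adjusted p = 0.0249). Neither gene's groups overlapped. Mrps18a had 7.83, 7.42 and 7.41 at 600 min, against 7.79, 7.88 and 7.58 at 0 min, with overlap, and a difference of -0.20 ± 0.15 (adjusted p = 0.407). The call of Mrps18c was lost without replicate 1 or 2 of 0 min, without replicate 2 of 600 min and with a repeated quantile normalization (adjusted p up to 0.104).

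Members with particular roles gave mixed results. Mrpl12 and Mrpl10 form the stalk that recruits translation factors. Mrpl12 differed by -0.05 ± 0.12 (adjusted p = 0.821) and Mrpl10 by -0.19 ± 0.06 (adjusted p = 0.0363) at 600 min, with 600 min levels of 7.74, 7.68 and 7.75 for Mrpl10, against 7.95, 7.97 and 7.81 at 0 min. Mrps12, at the decoding centre, was not called (-0.14 ± 0.07, adjusted p = 0.158). In human, variants of MRPS16, MRPS22, MRPS2, MRPS34, MRPL3 and MRPL44 cause deficiencies of oxidative phosphorylation. Of the mouse genes, Mrps22 was called lower, with 7.17, 7.32 and 7.22 at 600 min, against 7.34, 7.60 and 7.52 at 0 min (-0.25 ± 0.09, adjusted p = 0.0354). Mrps16 (-0.11 ± 0.09), Mrps2 (-0.05 ± 0.05), Mrps34 (0.04 ± 0.06), Mrpl3 (-0.11 ± 0.07) and Mrpl44 (-0.12 ± 0.10) were not called, with adjusted p between 0.292 and 0.745. The calls of Mrpl10 and Mrps22 were lost with the replicate block (adjusted p = 0.0571 and 0.0547) and with a repeated quantile normalization, and that of Mrpl10 also with an intensity trend. Single arrays mattered as well. The call of Mrpl10 was lost without any 1 of 5 arrays, all those at 600 min and replicates 1 and 2 of 0 min, and that of Mrps22 without any 1 of 4, replicates 2 and 3 of 0 min and 1 and 3 of 600 min (adjusted p up to 0.146 and 0.170).

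The 4 members above the median gene whose time means spanned the least were Mrpl39, Mrps15, Mrpl16 and Mrps7. Mrpl39, a mitochondria-specific protein of the large subunit, had means that spanned 0.05 over the 8 times, and 8.94, 8.85 and 8.88 at 600 min, against 8.87, 8.88 and 8.89 at 0 min. The difference was 0.01 ± 0.05. Mrps15 spanned 0.07, Mrpl16 0.08 and Mrps7 0.10, and their differences at 600 min were -0.07 ± 0.05, -0.06 ± 0.08 and -0.07 ± 0.07, none called. The 37 members not called at 600 min ranged from -0.39 (Mrps14, adjusted p = 0.0763) to 0.35 (Mrps36, adjusted p = 0.0626), so a miss does not mean a level without change. The other 28 called falls, besides the 6 of at least 0.5 described above, lay between -0.49 (Mrpl24) and -0.19 (Mrpl10).

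Late times (360, 480 and 600 min) were also set against early ones (30, 60 and 120 min), a comparison with 9 arrays on each side that leaves out 0 min. In it 38 members were lower and 9 higher, against 19.4% and 16.4% of all genes, and against 36.6% and 27.4% of genes above the median. The median member differed by -0.12. The largest called falls were those of Mrpl57 (-0.72 ± 0.07, adjusted p = 6.53e-08), Mrpl2 (-0.56 ± 0.05, 5.23e-09), Mrpl51 (-0.51 ± 0.03, 1.44e-11) and Mrpl50 (-0.49 ± 0.07, 4.77e-06). The largest called rises were those of Mrps6 (0.34 ± 0.05, adjusted p = 9.70e-06), Mrps27 (0.32 ± 0.07, 0.000755), Mrps36 (0.25 ± 0.08, 0.0152) and Mrpl58 (0.21 ± 0.06, 0.00528). Of the 38 lower members, 32 were also lower at 600 min. Among the rest, Mrps18a and Mrpl44 were called lower here (-0.24 ± 0.09, adjusted p = 0.037, and -0.18 ± 0.06, adjusted p = 0.0188). Mrpl3 was another, but its call was lost under 16 of 25 alternatives, among them the replicate block (adjusted p = 0.0694). The call of Mrps18a was lost with the replicate block (adjusted p = 0.0539), with a repeated quantile normalization (0.0529), without the outlying pair (adjusted p = 0.0637) and without any 1 of 10 arrays (up to 0.0925), namely replicate 2 or 3 of 30, 360, 480 or 600 min and replicate 3 of 60 or 120 min.

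Between single later times fewer members were called. From 120 to 240 min none was called, as for all genes (0%). At an unadjusted p under 0.05 limma gave 7 of the 77 members, against 9.42% of all genes, and 6 members with the replicate block. Without the outlying pair, 4 were called lower at 240 min than at 120 min, against 1.5% of all genes in that fit. At 360 min 1 member was higher and 1 lower than at 240 min (4.25% and 1.8% of all genes). At 600 min 2 were higher and 4 lower than at 360 min (2.54% and 3.43%). Both counts moved with single arrays. Over single arrays left out they ran from 0 (without replicate 3 of 240 min) to 5 (without replicate 2 of 240 min) for 360 against 240 min. They ran from 1 (without replicate 1 of 360 min) to 5 (without replicate 3 of 360 min) for 600 against 360 min.

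The DNA before the start of transcription is shown for members with the largest falls and rises at 600 min, because promoters of nuclear genes for mitochondrial proteins are known for sites of nuclear respiratory factor 1 (NRF1), of the ETS-family factor GABP and of YY1. Each run holds the 250 bases upstream of the first start listed by RefSeq on GRCm38.p6, and capitals mark matches, on either strand, to the searched letters. These were CGCATGCG (NRF1 core), CCGGAAG (ETS/GABP), AAGATGGCG (YY1), CACGTG (E-box, bound by the Myc family among others), CCAAT and GGGCGG (GC box). The first 3 genes fell and the last 3 rose.
Mrpl2, chr17:46645971-46646220, + strand: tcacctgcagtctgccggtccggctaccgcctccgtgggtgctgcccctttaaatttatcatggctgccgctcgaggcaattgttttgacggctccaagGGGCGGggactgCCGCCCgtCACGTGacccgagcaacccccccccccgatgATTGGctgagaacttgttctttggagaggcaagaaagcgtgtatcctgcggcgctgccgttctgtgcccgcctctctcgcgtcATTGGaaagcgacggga
Mrpl57, chr14:57825989-57826238, + strand: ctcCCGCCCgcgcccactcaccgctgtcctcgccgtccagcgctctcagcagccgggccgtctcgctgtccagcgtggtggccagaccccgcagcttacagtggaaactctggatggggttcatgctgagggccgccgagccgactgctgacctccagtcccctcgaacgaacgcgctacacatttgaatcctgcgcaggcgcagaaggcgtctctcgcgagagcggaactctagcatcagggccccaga
Mrpl51, chr6:125191950-125192199, + strand: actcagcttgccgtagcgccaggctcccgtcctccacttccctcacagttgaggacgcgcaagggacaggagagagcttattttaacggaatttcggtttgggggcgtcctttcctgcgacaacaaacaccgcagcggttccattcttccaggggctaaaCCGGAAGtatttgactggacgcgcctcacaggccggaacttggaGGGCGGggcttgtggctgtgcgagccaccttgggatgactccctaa
Mrps27, chr13:99344536-99344785, + strand: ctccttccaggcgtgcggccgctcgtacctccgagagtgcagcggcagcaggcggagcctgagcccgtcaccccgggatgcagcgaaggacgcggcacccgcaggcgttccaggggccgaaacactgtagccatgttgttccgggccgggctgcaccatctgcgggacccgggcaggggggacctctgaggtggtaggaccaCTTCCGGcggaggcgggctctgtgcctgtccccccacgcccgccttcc
Mrps6, chr16:92058086-92058335, + strand: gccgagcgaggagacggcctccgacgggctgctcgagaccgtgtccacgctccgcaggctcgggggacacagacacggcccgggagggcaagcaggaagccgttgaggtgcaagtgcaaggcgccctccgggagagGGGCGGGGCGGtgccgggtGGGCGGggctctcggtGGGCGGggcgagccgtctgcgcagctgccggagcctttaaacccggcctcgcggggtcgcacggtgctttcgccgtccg
Mrpl58, chr11:115403502-115403751, + strand: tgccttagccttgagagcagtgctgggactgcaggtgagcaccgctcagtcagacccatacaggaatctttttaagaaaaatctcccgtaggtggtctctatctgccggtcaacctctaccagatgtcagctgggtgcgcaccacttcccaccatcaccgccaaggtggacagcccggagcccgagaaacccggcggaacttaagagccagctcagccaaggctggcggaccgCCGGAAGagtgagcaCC
In Mrpl2 the matches are an E-box, at -131 to -126 from the start, with CCAAT on the reverse strand and GC boxes. Mrpl51 has an ETS match at -90 to -84, and Mrpl57 has one after its start, at 5 to 11, which is not printed. Mrps27 has an ETS match at -48 to -42 and a YY1 match after the start, at 15 to 23. In Mrps6 the matches are GC boxes, a pair of which overlap. In Mrpl58 an ETS match lies at -17 to -11 and another at -2 to 5, of which the capitals at the end are the first letters.

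Over windows of 300 bases, 250 before and 50 after the start, 68 members had an entry and 9 did not. ETS/GABP letters were in 24 of 68 members (35.3%), against 12.5% of 15563 genes tested with an entry, 20.0% of the 8062 of them above the median gene and 9.12% of all 27025 entries. NRF1 letters were in 7 (10.3%), against 2.76%, 4.54% and 1.91% of these sets. YY1 letters were in 8 (11.8%), against 2.11%, 3.7% and 1.49%. These shares are descriptions, and a match is not a bound site. For the E-box (5 members, 7.35%, against 8.4%, 10.8% and 7.24%), CCAAT (26, 38.2%, against 38.3%, 39.8% and 37.9%) and the GC box (34, against 49.9%, 66.7% and 35.9%) the members' share was not above that of the well-measured genes. By call at 600 min, ETS/GABP letters were in 13 of 29 lower members, 3 of 6 higher ones and 8 of 33 not called. NRF1 letters were in 4, 0 and 3 of these, YY1 letters in 2, 1 and 5, and the E-box in 4, 0 and 1.

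The factors that bind such sites were themselves measured. Gabpa, the ETS subunit of GABP, rose by 0.27 ± 0.08 at 600 min (adjusted p = 0.0191), with 8.24, 7.93 and 8.11 at 600 min, against 7.77, 7.83 and 7.89 at 0 min. Yy1 rose by 0.26 ± 0.08 (adjusted p = 0.0131), with 8.79, 8.66 and 8.52 at 600 min, against 8.43, 8.33 and 8.41 at 0 min. Nrf1 fell by 0.23 (SE 0.08, adjusted p = 0.0323), with 6.33, 6.20 and 6.10 at 600 min, against 6.45, 6.49 and 6.36 at 0 min. With the replicate block the call of Nrf1 was lost (adjusted p = 0.0509). The largest falls among the regulators were those of Myc (-0.62 ± 0.14, adjusted p = 0.00136) and of Esrra (-0.50 ± 0.09, adjusted p = 0.000216), an orphan nuclear receptor of energy metabolism. Myc had 8.74, 8.61 and 8.64 at 600 min, against 9.29, 9.42 and 9.14 at 0 min, and Esrra 5.22, 5.14 and 5.20 at 600 min, against 5.85, 5.64 and 5.58 at 0 min. The other 8 were not called at 600 min: Gabpb2 (-0.27), Gabpb1 (0.01), Ppargc1a (0.06), Ppargc1b (-0.13), Pprc1 (-0.09), Ppara (0.06), Mycn (-0.05) and Tfeb (-0.05). Of these, Gabpb1 and Pprc1 were called at 360 min, also with the replicate block (adjusted p = 0.00749 and 0.0494). Tfeb was called late against early, also with the replicate block (adjusted p = 0.0431).

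Other genes of mitochondrial gene expression were counted beside the members at 600 min. At that time 15.7% of all genes were lower and 11.2% higher, and 30.3% and 19.2% of genes above the median gene. Of 18 translation factors 7 were lower and 0 higher (median -0.17), led by the initiation factor Mtif2 (-0.79 ± 0.09, adjusted p = 8.89e-07), the GTPase Guf1 (-0.60 ± 0.06, 1.07e-07) and the messenger RNA-binding protein Lrpprc (-0.32 ± 0.06, 0.000124). Of 28 genes for mitoribosome assembly and ribosomal RNA modification 11 were lower and 2 higher (median -0.10). The largest falls were those of the pseudouridine synthase Trub2 (-0.88 ± 0.12, adjusted p = 1.46e-05), the ribosomal RNA methyltransferase Tfb1m (-0.70 ± 0.15, 0.000986) and Mterf3 (-0.43 ± 0.09, 0.00085). The rises were those of Grsf1 (0.68 ± 0.09, 9.17e-06), a protein of mitochondrial RNA granules, and the assembly factor Mpv17l2 (0.22 ± 0.04, 0.000886). Of 16 mitochondrial aminoacyl-tRNA synthetases 7 were lower and 0 higher (median -0.19), with the largest falls for the arginine enzyme Rars2 (-1.14 ± 0.11, adjusted p = 1.80e-07), the threonine enzyme Tars2 (-0.80 ± 0.09, 8.53e-07) and the asparagine enzyme Nars2 (-0.51 ± 0.06, 3.33e-06). Rars2 thus fell further than any member. At an unadjusted p under 0.05 limma gave 1 higher gene each among the translation factors and the synthetases, and with the replicate block neither list had a called rise.

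Of 11 genes for mitochondrial DNA maintenance and transcription, 6 were lower and 0 higher (median -0.25), against 15.7% and 11.2% of all genes. The falls included those of the elongation factor Tefm (-0.47 ± 0.12, adjusted p = 0.00521), the initiation factor Tfb2m (-0.41 ± 0.08, 0.000711) and the RNA polymerase Polrmt (-0.34 ± 0.07, 0.00105). Mitochondrial DNA itself was represented by ND3 and COX2, subunits of complexes I and IV. ND3 had 12.71, 12.76 and 12.81 at 600 min, against 12.63, 12.58 and 12.53 at 0 min (0.18 ± 0.05, adjusted p = 0.0133). COX2 had 13.08, 13.05 and 13.13 at 600 min, against 13.02, 12.90 and 12.94 at 0 min (0.13 ± 0.05, adjusted p = 0.0353). Both were called higher at 600 min, though not by the F-test over all times, and COX2 was not called with the replicate block (adjusted p = 0.0586). Mitoribosomal proteins under other symbols, namely Dap3 (0.06 ± 0.08), Gadd45gip1 (0.04 ± 0.11), Ptcd3 (-0.05 ± 0.08) and Chchd1 (-0.11 ± 0.11), were not called at 600 min (limma, 0 of 4 with and without adjustment and with the replicate block). Of 7 such genes listed, only these 4 were measured. Late against early, 2 of the 4, Ptcd3 and Chchd1, were called lower, against 19.4% of all genes. They kept the call with the replicate block (limma adjusted p = 0.0457 and 0.0482). Nuclear genes of oxidative phosphorylation were picked by the beginnings of subunit symbols, a rule that also admits assembly factors with symbols beginning with Ndufaf. Of these 90 genes 27 were lower, or 30%, and 2 higher (median -0.13). That share lay near the 30.3% lower among genes above the median gene. With the replicate block 21 of the 90 were lower and 0 higher. Of 55 cytosolic ribosomal proteins 3 were lower, or 5.45%, and 0 higher (median -0.03). At an unadjusted p under 0.05 limma gave 1 higher cytosolic ribosomal protein and 0 higher genes of the nuclear list for mitochondrial DNA maintenance and transcription, with no called rise in either list under the replicate block. The lists were not tested against each other.

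**Figure D4:**
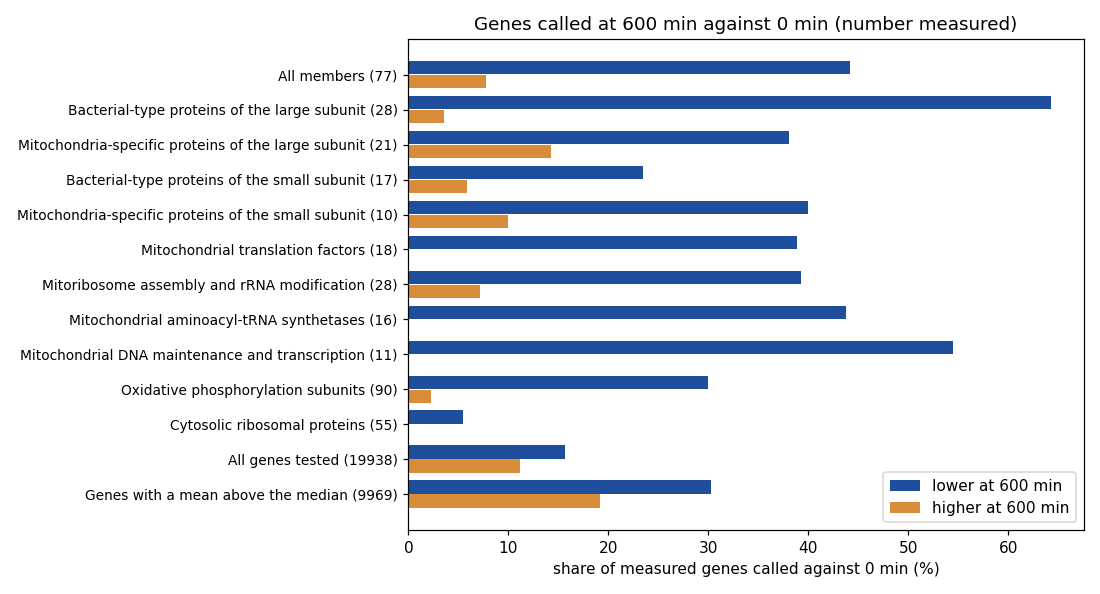
Share of measured genes called lower (blue) and higher (orange) at 600 min against 0 min, in percent (x axis), for the members, their groups and other lists (y axis, number measured in brackets). The bars of the members reach 44.2% and 7.79%, and those of all genes 15.7% and 11.2%. The oxidative phosphorylation list was picked by the beginnings of symbols and also admits assembly factors beginning with Ndufaf.

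Many members share a start region with a gene on the other strand. A neighbour whose start lay within 1000 bases on the opposite strand was listed for 26 of 68 members (38.2%), against 14.4% of 15563 genes tested with an entry and 20.9% of those above the median gene. Mrps11 and Mrpl46 were such a pair, with starts 42 bases apart, and neither was called at 600 min (-0.17 ± 0.08 and 0.04 ± 0.08). Of 25 pairs, 23 had a measured partner. Both genes were called in the same direction in 6 pairs and in opposite directions in 3. In 3 pairs the member alone was called, in 2 the partner alone, and in 9 neither.

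In the 3 opposite pairs the member fell and its neighbour rose. Mrpl57 differed by -0.69 ± 0.12 and Ska3, a kinetochore protein whose start lies 76 bases away, by 0.96 ± 0.15 (adjusted p = 4.73e-05). Mrpl51 differed by -0.62 ± 0.05 and Ncapd2, a condensin subunit 614 bases away, by 0.50 ± 0.09 (adjusted p = 0.000129). Mrpl27 differed by -0.24 ± 0.06 (adjusted p = 0.00437) and Eme1, a subunit of a DNA junction endonuclease 48 bases away, by 0.51 ± 0.11 (adjusted p = 0.00156). For Mrpl27, which has a pseudogene, a second probe set was not called (-0.18 ± 0.10, adjusted p = 0.251 over all probe sets). These pairs were listed because their directions differed, and whether close starts go with a shared direction was not tested. Among the pairs that moved together, Mrps27 and Ptcd2, a pentatricopeptide repeat protein 108 bases away, rose by 0.53 ± 0.12 and 0.59 ± 0.11 (adjusted p = 0.000293 for Ptcd2). Mrpl18 and Tcp1, a chaperonin subunit, rose by 0.24 ± 0.07 and 0.14 ± 0.04. The partner was lower together with Mrpl21 (Ighmbp2, -0.29 ± 0.07), Mrpl37 (Cyb5rl, -0.26 ± 0.07), Mrpl41 (Pnpla7, -0.69 ± 0.08) and Mrps18b (Ppp1r10, -0.68 ± 0.17). The call of Mrpl41 was lost with the replicate block (adjusted p = 0.0661).

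**Figure D5:**
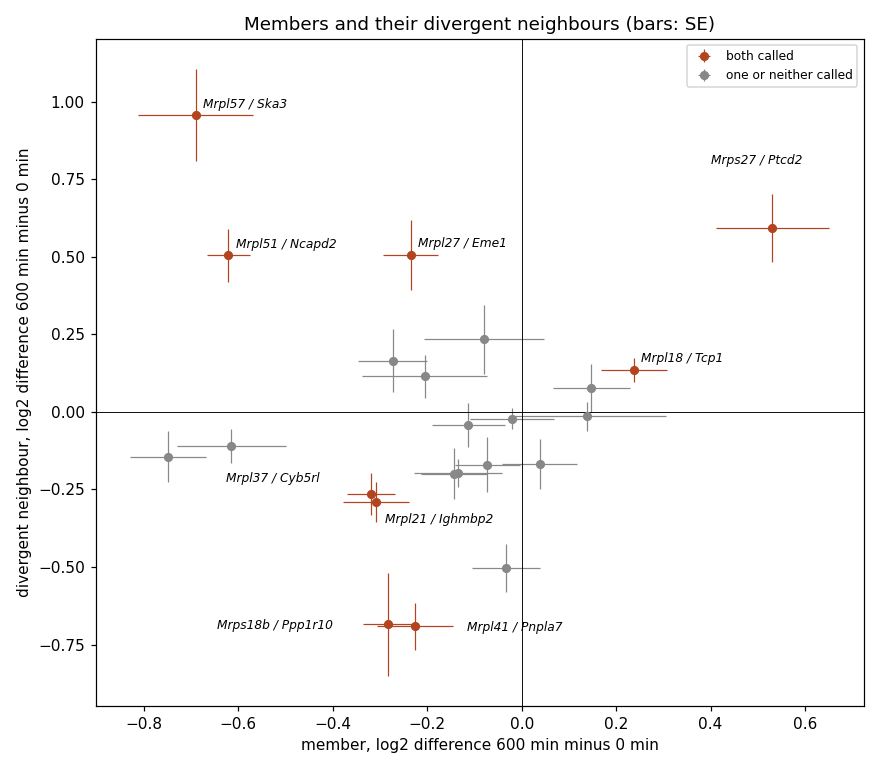
Log2 difference at 600 min against 0 min of the 23 pairs of a member (x axis) and the gene that starts within 1000 bases on the other strand (y axis), with standard errors as bars. Named pairs in red have both genes called. Those at the upper left are Mrpl57, Mrpl51 and Mrpl27, each lower beside a higher neighbour.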

How the data were processed

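RNA of 24 samples was measured on MoGene 1.0 ST arrays. Per the submitters' processing notes, Partek and RMA were used, but their versions are not given in the sources used here. Deposited log2 values entered the fits unchanged, with the scale taken from their range and from RMA. For each gene the replicates 1, 2 and 3 averaged to the same value (largest gap 8.75e-05), so the authors' deposited values lack a replicate effect, and the fit counts 16 residual degrees of freedom where 14 remain. The deviations of same-numbered arrays correlated between -0.53 and 0.18 (84 pairs, median -0.15), but removing the effect itself pushes these correlations below 0, so whether the numbers paired the samples could not be checked. Calls that a fit with the replicate number as a block loses are given beside the named genes. P-values measure the spread between samples that the labels call biological replicates, as it stands in values that lack a replicate effect.

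Of 35399 probe sets, 21789 carried 1 symbol, 1621 several and 11989 none. The single-symbol probe set with the highest mean stood for each of 19938 genes, and 8 members had 2. The package limma (version 3.58.1, under R 4.3.3) fitted a mean per time to the 24 arrays, with two-sided moderated tests and Benjamini-Hochberg adjustment per comparison. Errors are SE of the model. The fit was tested on simulated data.

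Named were the 6 largest called changes in each direction at 600 min, members called by 240 min, the 4 largest late against early, the 4 flattest, 14 members with special roles, every regulator and up to 3 called genes per direction of each other list. The pairs of neighbours, pseudogenes and the promoter genes were chosen after their values were seen. Members and lists were chosen with earlier results of these data known. Alternatives covered the replicate block, prior trend, dim genes, normalization, probe set choice, arrays left out and a fit to 6 arrays.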

Additional observations from a re-analysis of the deposited data

How the results depend on the processing

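With single arrays left out set aside for the next paragraph, counts of called members kept within 1.5 times of their value, except as follows. Without the outlying pair the count was 10 (main value 1) for 240 against 0 min, 4 (0) for 240 against 120 min and 11 (6) for 600 against 360 min. A repeated quantile normalization gave 6 (2) for 360 against 240 min and 3 (6) for 600 against 360 min, a fit to the 6 arrays compared gave 0 (2) for 360 against 240 min, and the replicate block gave 2 (6) for 600 against 360 min. The cause was not tested.

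With the replicate number as a block, 35 of 77 members were called at 600 min (29 lower, 6 higher), 28 at 480 min, 12 at 360 min (10 lower, 2 higher), 43 late against early and 32 by the F-test. Of all 19938 genes, that fit called 2863 lower and 1961 higher at 600 min. At 360 min it called 1815 of them lower and 1452 higher. Among members called at 600 min, those lost were Mrpl4, Mrpl10, Mrpl41, Mrpl55 and Mrps22 (adjusted p between 0.0547 and 0.0700). Leaving out 1 array at a time, the counts ran from 0 to 0 at 30, 60 and 120 min and for 240 against 120 min, and from 1 to 10 at 240 min (main value 1, and 10 without replicate 3). They ran from 13 to 15 at 360 min, 22 to 27 at 480 min, 30 to 37 at 600 min, 34 to 42 by the F-test and 43 to 47 late against early. For 360 against 240 min they ran from 0 to 5 (main value 2) and for 600 against 360 min from 1 to 5 (main value 6). A smaller count with 1 array fewer also reflects the fewer samples.

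For the named members at 600 min, 369 of 406 alternative values kept direction and side of the threshold, 27 lost the call, 6 gained one and 0 reversed, and 4 moved without a call. Late against early 681 of 725 were kept, 35 lost and 7 gained a call, and 0 reversed. Mrpl2, Mrpl57, Mrpl51, Mrpl50, Mrpl13, Mrps17, Mrps18b, Mrps27, Mrps6 and Mrps30 were called at 600 min under all 14 alternatives. Mrps36, not called with all arrays, was called under 6 of 14, with adjusted p between 0.0262 and 0.226 over all. Repeated quantile normalization and median centring moved the median of all genes at 600 min to 0.00 and -0.01. Probes near background limit Mrps10.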

Other observations

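RefSeq lists 8 pseudogenes of 6 members (Mrpl23, Mrpl27, Mrpl48, Mrpl51, Mrps33 and Mrps36), and 5 of these members had 2 probe sets. For the 8 members with a second single-symbol probe set, both probe sets had the same sign at 600 min against 0 min. The second gave -0.27 ± 0.06 for Mrpl23 (first -0.25), -0.18 ± 0.10 for Mrpl27 (-0.24), -0.16 ± 0.06 for Mrpl41 (-0.23), 0.07 ± 0.04 for Mrpl47 (0.14), -0.87 ± 0.16 for Mrpl51 (-0.62), -0.24 ± 0.06 for Mrps33 (-0.24), 0.32 ± 0.13 for Mrps36 (0.35) and -0.10 ± 0.07 for Mrps5 (-0.03), as log2 differences with SE. The second probe set of Mrpl51 gave a fall further from 0 than the one used.

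Among members not described so far, Mrps9, the relative of bacterial S9, was called higher at 360 min (0.35 ± 0.08, adjusted p = 0.00481) but not at 480 min (0.15 ± 0.08, 0.241) or 600 min (0.20 ± 0.08, 0.0917). Its levels were 6.72, 6.90 and 6.79 at 0 min, 6.89, 7.04 and 6.92 at 240 min, 7.29, 7.07 and 7.11 at 360 min, 6.86, 7.14 and 6.87 at 480 min, with 7.00, 6.85 and 7.16 at 600 min. Mrpl43, a mitochondria-specific protein of the large subunit, was likewise called at 360 min (0.25 ± 0.08, 0.036), a call lost with the replicate block (adjusted p = 0.0577), and not at 600 min (0.15 ± 0.08, 0.223). Mrps9 and Mrpl43 were also called late against early, with the replicate block too (limma adjusted p = 0.0129 and 0.0219). Mrpl9, the relative of bacterial L9, was lower at 600 min (-0.29 ± 0.07, adjusted p = 0.00236) but not late against early (0.01 ± 0.04, 0.924). Its means were 7.16 at 0 min, 6.89 at 120 min, 6.94 at 240 min, 7.03 at 360 min and 6.87 at 600 min. These genes were chosen after their values were seen.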
